A study of Mus musculus with 12 samples.

Results

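MHC class I antigen presentation was followed through 9 genes, Tap1, Tap2, Tapbp, Psmb8, Psmb9, Psmb10, B2m, H2-D1 and H2-K1, in mouse embryonic fibroblasts with and without STING and TREX1, before and after the carcinogen DMBA. Every probe whose platform gene symbol is one of these names was taken, whatever its values. That gave 19 of the 45281 probes on the array, for 9 of its 19057 named genes. Of the 19 probes, 16 were detected on at least 2 of the 12 arrays and were tested, so that each of the 9 genes kept at least 1 tested probe. A gene is given below by its tested probe with the highest mean level.

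Class I molecules show fragments of a cell's own and viral proteins to CD8 T cells. The immunoproteasome, a proteasome with exchanged catalytic subunits (PSMB8, PSMB9 and PSMB10), cuts proteins into peptides, the TAP1 and TAP2 transporter carries these into the endoplasmic reticulum, tapasin (TAPBP) bridges the transporter to empty class I molecules, and each finished molecule is a heavy chain (H2-D1 or H2-K1) bound to beta-2 microglobulin (B2M). These genes are known to be driven by interferons and by the coactivator NLRC5, and fibroblasts express them at a low constant level that interferon raises.

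The cells came from E13.5 embryos on a mixed C57BL6/129Sv background and were grown in culture. There were 4 genotypes: STKO (Sting -/- Trex1 -/-), SKO (Sting -/- Trex1 +/+), TKO (Sting +/+ Trex1 -/-) and WT (Sting +/+ Trex1 +/+). STING is the adaptor through which cytosolic DNA sensing by cGAS switches on type I interferon genes, and TREX1 is an exonuclease that clears cytosolic DNA. Each genotype received the vehicle DMSO, DMBA (7,12-dimethylbenz[a]anthracene, a carcinogenic aromatic hydrocarbon whose metabolites damage DNA) at 20 µg/ml for 24 h, or the same for 48 h, with 1 Illumina bead array per genotype and treatment. No time is stated for the DMSO cultures, and an effect of DMBA cannot be told apart from one of culture time. Because no separate embryos or cultures are named, all p-values measure only the spread between these 12 arrays, which may be technical, and whatever else differs between the 4 cultures cannot be told apart from genotype. The deletions are constitutive, and DMBA was given to every genotype.

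Between 15662 and 16824 probes were detected per array, and log2 values of any pair of arrays correlated at 0.91 to 0.992 across probes. The Sting1 probe averaged lower on every Sting -/- array (5.06 to 6.01) than on every Sting +/+ array (7.80 to 8.12), and the main Trex1 probe lower on every Trex1 -/- array (6.22 to 7.19) than on every Trex1 +/+ array (8.12 to 9.46). All 10 fibroblast markers were detected on all 12 arrays. Of 12 macrophage markers on the array 11 were detected somewhere, so the cultures were not free of macrophage transcripts. Of 6 markers of other leukocytes 1 was detected somewhere (Ptprc, Itgax, Flt3, Cd3e and Ncr1 on no array), of 5 endothelial markers 2 (Pecam1, Cdh5 and Kdr on none) and of 5 epithelial markers 4 (Krt8 on all 12 arrays, Epcam on none).

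The genomic neighbourhood is shown because 2 of the genes share a start region and 3 carry an ISRE-like element there. Promoter windows (the 250 bases before each start, RefSeq, GRCm38.p6) were found for 8 of the 9 genes, with 2 windows for H2-K1. Tap2 has no entry. Tap1, Tapbp, Psmb8, Psmb9, H2-D1 and H2-K1 lie on chromosome 17, B2m on chromosome 2 and Psmb10 on chromosome 8. Tap1 and Psmb9 are divergent neighbours whose starts are 225 bases apart, so the same bases precede both. They are printed on the strand of Tap1 (chr17:34187331-34187555, +), with capitals marking a CCAAT box (NF-Y), a GCGTG core and its reverse complement CACGC (the xenobiotic response core bound by the DMBA-activated AHR receptor).
Tap1 and Psmb9, between the starts: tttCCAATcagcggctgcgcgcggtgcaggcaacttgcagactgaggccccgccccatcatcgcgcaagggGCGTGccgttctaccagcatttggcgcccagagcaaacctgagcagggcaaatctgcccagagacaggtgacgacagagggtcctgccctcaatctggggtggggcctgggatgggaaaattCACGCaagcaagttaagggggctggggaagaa
The windows of B2m (chr2:122147437-122147686, +) and H2-D1 (chr17:35262844-35263093, +) are printed whole, with capitals marking an NF-kB consensus, an ISRE-like element and NF-Y boxes (CCAAT or its reverse complement ATTGG).
B2m: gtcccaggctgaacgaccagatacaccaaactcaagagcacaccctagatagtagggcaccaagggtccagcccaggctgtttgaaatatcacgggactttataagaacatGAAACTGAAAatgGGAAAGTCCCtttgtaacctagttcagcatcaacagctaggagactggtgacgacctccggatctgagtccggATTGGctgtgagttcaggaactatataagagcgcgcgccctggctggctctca
H2-D1: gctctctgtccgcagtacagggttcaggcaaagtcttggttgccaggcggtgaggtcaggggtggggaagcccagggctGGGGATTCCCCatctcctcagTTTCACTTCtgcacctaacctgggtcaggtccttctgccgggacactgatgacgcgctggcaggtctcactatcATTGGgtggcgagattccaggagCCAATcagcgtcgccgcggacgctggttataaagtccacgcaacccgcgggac
The stretch from the NF-kB consensus to the ISRE-like element was identical at 29 of 30 bases between H2-D1 (chr17:35262923-35262952, +) and H2-K1 (chr17:34000429-34000458, -), the 2 heavy chain genes.
H2-D1 stretch: GGGGATTCCCCatctcctcagTTTCACTTC
H2-K1 stretch: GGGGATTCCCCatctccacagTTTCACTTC

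Motifs were searched on both strands by their letters alone. The ISRE-like element (GAANNGAAA, or the same with 1 more A after the first GAA, a spacing added after the B2m window was seen) was found before B2m, H2-D1 and H2-K1 and in 8.82% of 32851 RefSeq promoter windows of the same length. The NF-kB consensus was found before the same 3 genes and in 7.25% of windows, where in H2-D1 and H2-K1 the 2 matches overlap, offset by 1 base. GAS (TTCNNNGAA), an interferon gamma response element, was found before Psmb8 and in 7.02% of windows. The GCGTG core was found before Tap1, Psmb9, Psmb8, Psmb10 and H2-D1 and in 28.2% of windows, and the NF-Y box before all 8 genes but Psmb8 and Psmb10 and in 33.8% of windows. The p53 consensus pair was found before none of the 8 genes and in 0.0639% of windows. A match describes letters and no binding was measured.

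The levels of the 9 genes followed STING first. Values are normalized log2 signals, on which 1 unit is a factor of 2, and are given for DMSO, DMBA 24 h and DMBA 48 h in that order. In bulk RNA, fewer cells of a type and less RNA per cell cannot be told apart. Tap1, one chain of the peptide transporter, read 5.46, 7.40 and 7.41 in STKO, 5.46, 6.31 and 6.66 in SKO, 7.26, 8.71 and 8.93 in TKO, and 6.67, 8.10 and 8.20 in WT. It was not detected in STKO and SKO under DMSO and was detected on the other 10 arrays. In each of the 4 genotypes both DMBA arrays stood above the DMSO array, and STKO with DMBA (up to 7.41) stood above WT under DMSO (6.67). Tap1 is thus the only one of the 9 genes whose Sting -/- and Sting +/+ arrays overlapped.

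Tap2, the other chain of the transporter, read 7.19, 7.73 and 8.32 in STKO, 7.66, 7.40 and 8.05 in SKO, 8.38, 9.11 and 9.01 in TKO, and 8.45, 9.00 and 8.73 in WT. The highest Sting -/- array (STKO at 48 h) lay just below the lowest Sting +/+ array (TKO under DMSO). Tapbp, tapasin, read 6.18, 6.47 and 6.51 in STKO, 6.17, 6.10 and 6.58 in SKO, 7.36, 7.69 and 8.17 in TKO, and 6.91, 7.17 and 7.15 in WT. TKO was above WT at each treatment, and the Sting -/- arrays were all lower. A second, dimmer Tapbp probe was detected on 7 arrays, none of them at 48 h, and is given with the DMBA results below because it went the other way.

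**Figure D1:**
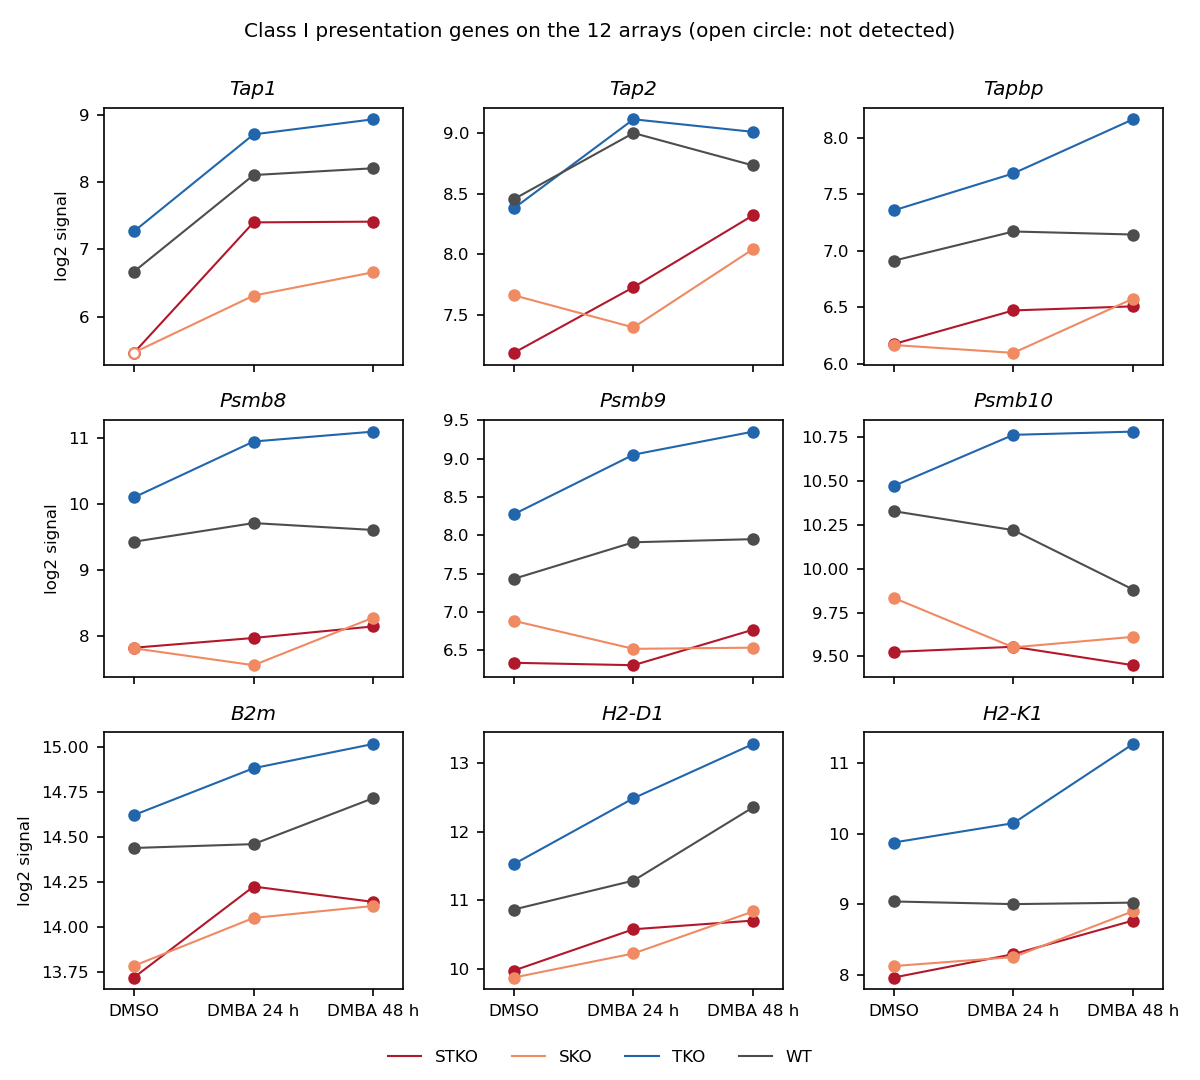
Normalized log2 signal (y axis) of the 9 genes on the 12 arrays, by treatment (x axis) and genotype (lines). Single arrays are shown, so there are no error bars; open circles mark arrays on which the probe was not detected (Tap1 in STKO and SKO under DMSO). All TKO and WT arrays lie above all STKO and SKO arrays, apart from Tap1, where their ranges overlap, and Tap1 is higher with DMBA in all 4 genotypes.

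Of the immunoproteasome subunits, Psmb8 and Psmb9 showed a wide gap between genotypes and Psmb10 a narrow one. Psmb8 read 7.82, 7.96 and 8.14 in STKO, 7.81, 7.55 and 8.27 in SKO, 10.101, 10.95 and 11.10 in TKO, and 9.43, 9.71 and 9.61 in WT. Psmb9 read 6.34, 6.31 and 6.77 in STKO, 6.89, 6.52 and 6.54 in SKO, 8.28, 9.05 and 9.35 in TKO, and 7.43, 7.91 and 7.95 in WT. The highest Sting -/- array was 8.27 for Psmb8 and 6.89 for Psmb9, against 9.43 and 7.43 for the lowest Sting +/+ array. Psmb10 read 9.53, 9.56 and 9.45 in STKO, 9.83, 9.55 and 9.61 in SKO, 10.47, 10.76 and 10.78 in TKO, and 10.33, 10.22 and 9.88 in WT. Its groups came closer together than those of Psmb8 and Psmb9, with the lowest WT array (9.88, DMBA 48 h) just above the highest SKO array (9.83, DMSO).

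B2m, the light chain, was the brightest of the 9 genes on every array, although levels of different probes are not a comparison of transcript amounts. It read 13.72, 14.23 and 14.14 in STKO, 13.78, 14.05 and 14.12 in SKO, 14.62, 14.88 and 15.02 in TKO, and 14.44, 14.46 and 14.72 in WT. H2-D1, a classical heavy chain, read 9.97, 10.57 and 10.70 in STKO, 9.87, 10.22 and 10.84 in SKO, 11.53, 12.49 and 13.29 in TKO, and 10.86, 11.29 and 12.36 in WT. H2-D1 climbed at each step in all 4 genotypes. H2-K1, the other classical heavy chain, read 7.97, 8.30 and 8.77 in STKO, 8.13, 8.26 and 8.90 in SKO, 9.87, 10.15 and 11.27 in TKO, and 9.04, 9.00 and 9.03 in WT. The 3 WT arrays of H2-K1 lay between 9.00 and 9.04, just above SKO at 48 h (8.90). Heavy chain genes have close relatives in the same locus, and the probe sequences were not used here, so a heavy chain probe may read more than 1 gene.

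All 6 Sting -/- arrays were below all 6 Sting +/+ arrays for 8 of the 9 genes, the exception being Tap1. The same held for 131 of 10142 tested genes (1.29%). Split by source, STING status alone held 48.1% (Tap1) to 83.7% (Psmb8) of each gene's sum of squares over the 12 arrays, against a median of 7.97% over all tested genes. Treatment held 41.6% for Tap1, 24.4% for H2-D1 and 16.1% for Tap2, and 1.01 to 14.6% for the other 6 genes, against a median of 39.5% over all tested genes. What neither genotype nor treatment held in an additive split was 2.19 to 12.1%, against a median of 25.9%.

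**Figure D2:**
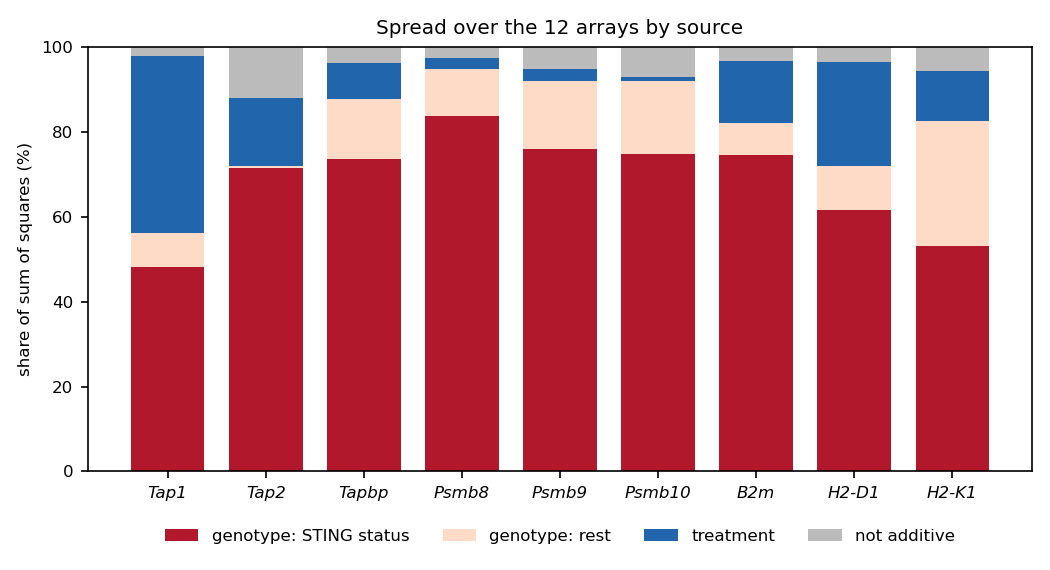
Share of each gene's sum of squares over the 12 arrays (y axis, %) held by STING status, by the rest of genotype, by treatment and by neither. Psmb8 is at one end with 83.7% for STING status and 2.73% for treatment, and Tap1 at the other with 48.1 and 41.6%.

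Loss of STING was first asked within cells that also lack TREX1. STKO was lower than TKO for all 9 genes at each of the 3 treatments, and all 9 passed the test (limma, adjusted p under 0.05 over all tested probes), where 2.82% of all tested genes were called lower. Differences are means over the 3 treatments with limma's standard error. Psmb8 averaged 7.97 ± 0.16 in STKO and 10.72 ± 0.54 in TKO (SD, n = 3 arrays each), a difference of -2.74 ± 0.20 (adjusted p = 3.92e-05), or 0.149 of the TKO level. The other immunoproteasome subunits fell too, Psmb9 with a difference of -2.42 ± 0.23 (adjusted p = 0.000191) and Psmb10 of -1.16 ± 0.15 (adjusted p = 0.00132). The heavy chains H2-K1 and H2-D1 differed by -2.08 ± 0.22 and -2.02 ± 0.20, which is 0.236 and 0.247 of the TKO level. The differences were -1.55 ± 0.18 for Tap1 (as measured, 1 of its 3 STKO arrays being not above background), -1.35 ± 0.15 for Tapbp, -1.08 ± 0.22 for Tap2 and -0.81 ± 0.12 for B2m, with adjusted p from 0.000419 (Tapbp) to 0.0185 (Tap2). The median over the 9 genes was -1.55, beside 0.01 over all tested genes. Without the 24 h arrays 7 of the 9 passed (Tap2 and Psmb10 did not), without the 48 h arrays 7 (Tap2 and B2m did not) and without DMSO 8 (Tap2 did not). Further probes of H2-D1 (-1.96 and -1.50), Psmb10 (-1.14) and B2m (-0.72) passed too, and the second probes of Tapbp (-0.38) and H2-K1 (-0.82) did not. The second Psmb8 probe was detected on the 6 Sting +/+ arrays and on no other, so it entered the tests only through the cells where it is high and adds no support.

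With TREX1 present, SKO was lower than WT for all 9 genes at each treatment, and 7 passed, where 4.23% of all tested genes were called lower. Psmb8 differed by -1.70 ± 0.20 (adjusted p = 0.000986). Tap1 differed by -1.51 ± 0.18 as measured (adjusted p = 0.000932), being not detected in SKO under DMSO. The differences were -1.19 for H2-D1, -1.12 for Psmb9, -1.02 for Tap2, -0.80 for Tapbp and -0.55 for B2m, with adjusted p from 0.00684 (H2-D1) to 0.023 (B2m). H2-K1 (-0.59 ± 0.22, adjusted p = 0.151) and Psmb10 (-0.48 ± 0.15, adjusted p = 0.0972) did not pass. The second Tapbp probe differed by -0.55 under DMSO, 0.36 at 24 h and -0.41 at 48 h. The second H2-K1 probe, not detected on any SKO array, differed by -0.33, 0.24 and -1.05. Further tested probes of Psmb10, B2m and H2-D1 were lower in SKO at each treatment. Without the 24 h arrays, or without the 48 h arrays, 2 of the 9 passed in each case, Psmb8 and Tap1.

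The gap was there before any DMBA. Under DMSO alone, with STKO and SKO set against TKO and WT in a fit that lets the DMBA response depend on STING, 8 of the 9 genes were lower in the Sting -/- cells, where 3.42% of all tested genes were called lower. Psmb8 averaged 7.81 in the Sting -/- and 9.76 in the Sting +/+ DMSO arrays (n = 2 each), a difference of -1.95 ± 0.21 (adjusted p = 0.00189). Tap1 was not above background on the 2 Sting -/- arrays, which makes the Sting +/+ arrays at least 2.36-fold brighter (difference as measured -1.50 ± 0.23, adjusted p = 0.00853). The differences were -1.41 for H2-K1, -1.28 for H2-D1, -1.24 for Psmb9, -0.99 for Tap2, -0.96 for Tapbp and -0.78 for B2m, with adjusted p from 0.00443 (H2-D1) to 0.0299 (Tap2). Psmb10 did not pass (-0.72 ± 0.18, adjusted p = 0.0613). The count rests on 4 DMSO arrays: without the WT array 2 genes passed (Psmb8 and H2-D1), without the STKO array 3, without the SKO array 5 and without the TKO array 8.

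**Figure D3:**
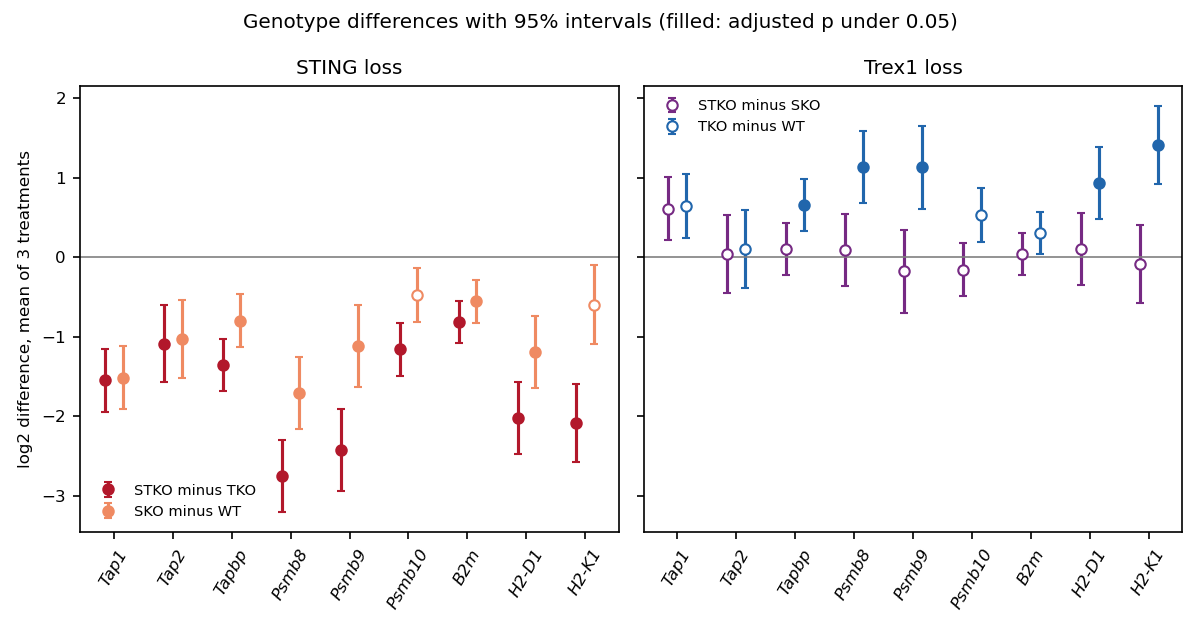
Genotype differences of the 9 genes (log2, mean of 3 treatments, with limma's 95% intervals). Left, loss of STING: STKO minus TKO runs from -2.74 (Psmb8) to -0.81 (B2m) and SKO minus WT from -1.70 to -0.48. Right, loss of TREX1: TKO minus WT runs from 0.10 (Tap2) to 1.41 (H2-K1), while no STKO minus SKO difference passed the test. Filled points passed it.

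Loss of TREX1 raised class I genes where STING was present. TKO was higher than WT for 8 of the 9 genes at each of the 3 treatments, Tap2 being higher at 2 of 3, and 5 genes passed, where 2.38% of all tested genes were called higher. H2-K1 averaged 10.43 ± 0.74 in TKO and 9.02 ± 0.02 in WT (SD, n = 3 arrays each), a rise of 1.41 ± 0.22 (adjusted p = 0.00408), which is 2.65-fold. Psmb8 rose by 1.14 ± 0.20, Psmb9 by 1.13 ± 0.23, H2-D1 by 0.93 ± 0.20 and Tapbp by 0.66 ± 0.15, with adjusted p from 0.00866 (Psmb8) to 0.029 (Tapbp). Tap1 (0.64 ± 0.18, adjusted p = 0.0776), Psmb10 (0.53 ± 0.15, adjusted p = 0.09), B2m (0.30 ± 0.12, adjusted p = 0.258) and Tap2 (0.10 ± 0.22, adjusted p = 0.929) did not pass. The count was 3 without DMSO (H2-K1, Psmb8 and Psmb9), 0 without the 24 h arrays and 1 without the 48 h arrays (H2-K1). The second Tapbp probe differed by 0.22 under DMSO, 0.32 at 24 h and 0.004 at 48 h, where it was not detected. The second H2-K1 probe, not detected in either genotype under DMSO, differed by -0.47, 0.61 and 0.71. Further tested probes of Psmb8, Psmb10, B2m and H2-D1 were higher in TKO at each treatment. This comparison shares the WT arrays with SKO against WT and the TKO arrays with STKO against TKO.

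Where STING was absent, loss of TREX1 raised none of the 9 genes past the test: STKO against SKO gave 0 calls among them, where 0.168% of all tested genes were called in either direction. At an unadjusted p under 0.05 the limma test named 1 of the 9 genes and 699 of all genes. That gene is Tap1, at 0.61 ± 0.18 (95% interval 0.22 to 1.01, adjusted p = 0.463), which differed by -0.0039 under DMSO, where it was not detected in either genotype, by 1.09 at 24 h and by 0.75 at 48 h. For the other 8 genes the difference was between -0.18 and 0.11. Their 95% intervals reach down to -0.70 (Psmb9) and up to 0.56 (H2-D1), so small effects were not measurable with 3 arrays a genotype. By mean level TKO came first, WT next and the 2 Sting -/- genotypes last for all 9 genes, with TKO and WT separated by the test for 5 genes and STKO and SKO for 0.

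Whether the TREX1 effect itself depended on STING was tested as the difference of those differences. It was below 0 for all 9 genes and passed for H2-K1 alone (-1.49 ± 0.31, adjusted p = 0.031), where 1.16% of all tested genes were called lower. Loss of TREX1 changed H2-K1 by -0.08 without STING and by 1.41 with it. Psmb9 (-1.30 ± 0.33, adjusted p = 0.0758), Psmb8 (-1.04 ± 0.29, adjusted p = 0.108) and H2-D1 (-0.82 ± 0.29, adjusted p = 0.224) did not pass, and Tap1 (-0.03 ± 0.25) and Tap2 (-0.06 ± 0.31) were close to 0 with wide errors. The H2-K1 call was lost without the 24 h arrays and without the 48 h arrays (0 of 9 called in each), and without DMSO Psmb9 was called in its place.

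DMBA raised class I genes on top of these baselines, Tap1 first. At 24 h Tap1 was higher than under DMSO by 1.94 in STKO, 0.85 in SKO, 1.44 in TKO and 1.44 in WT, a mean rise as measured of 1.42 ± 0.15 (adjusted p = 0.00164). STKO and SKO under DMSO give only a limit, against which Tap1 was at least 3.16-fold brighter in STKO and at least 1.51-fold in SKO. H2-D1 was higher by 0.60, 0.35, 0.96 and 0.42 in STKO, SKO, TKO and WT, a mean rise of 0.59 ± 0.17 (adjusted p = 0.0489). These 2 of 9 genes passed at 24 h, where 7.01% of all tested genes were called higher, and the H2-D1 call was lost without any one of the genotypes. Of the other 7, B2m came nearest (0.26 ± 0.10, adjusted p = 0.112) and Psmb10 was at -0.02 ± 0.13.

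At 48 h 7 of the 9 genes had risen over the 4 genotypes, where 19.2% of all tested genes were called higher. Tap1 stood at 1.59 ± 0.15 as measured (adjusted p = 0.000116), with a difference of 1.67 in TKO and 1.54 in WT and at least 3.19-fold in STKO and 1.92-fold in SKO, and H2-D1 at 1.24 ± 0.17 (adjusted p = 0.000628), 2.36-fold. H2-D1 was higher by 0.73 in STKO, 0.97 in SKO, 1.76 in TKO and 1.50 in WT. H2-K1 rose by 0.74 ± 0.19 over the 4 genotypes, with differences of 0.81 in STKO, 0.78 in SKO and 1.39 in TKO but -0.02 in WT. The rises of Tap2 (0.60), Psmb8 (0.49), Tapbp (0.45) and B2m (0.36) were smaller, with adjusted p from 0.0197 (Tapbp) to 0.0482 (Psmb8). Psmb9 (0.42 ± 0.20, adjusted p = 0.125) and Psmb10 (-0.11 ± 0.13, adjusted p = 0.544) did not pass. Without TKO, or without STKO, the 2 calls left were Tap1 and H2-D1.

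The probes of a gene did not always move alike at 48 h. The second Tapbp probe, not above background on any 48 h array, fell by 0.65 ± 0.17 as measured (adjusted p = 0.0128), with differences of -0.27, -0.61, -0.97 and -0.75 in STKO, SKO, TKO and WT, and the mean of both Tapbp probes did not pass (-0.10, adjusted p = 0.394), so the Tapbp rise holds for its brighter probe only. The further tested probes of B2m (0.46) and H2-D1 (1.25 and 0.82) rose, and those of Psmb8 (0.37, adjusted p = 0.134) and Psmb10 (-0.15, adjusted p = 0.451) did not pass. The second H2-K1 probe differed by 0.42 in STKO, 0.10 in SKO, 2.00 in TKO and 0.82 in WT, unlike the first in SKO and WT. It was detected on 3 DMBA arrays and no DMSO array, so it could enter the tests only through DMBA and adds no support. Between 24 and 48 h 1 gene of the 9 rose further, H2-D1 (0.65 ± 0.17, adjusted p = 0.043), where 5.31% of all tested genes were called higher. H2-K1 gained 0.57 ± 0.19 (adjusted p = 0.0906) and Tap1 0.17 ± 0.15 (adjusted p = 0.522) over the same interval. The H2-D1 call was lost without any one of the genotypes. Both DMBA comparisons share the DMSO arrays.

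**Figure D4:**
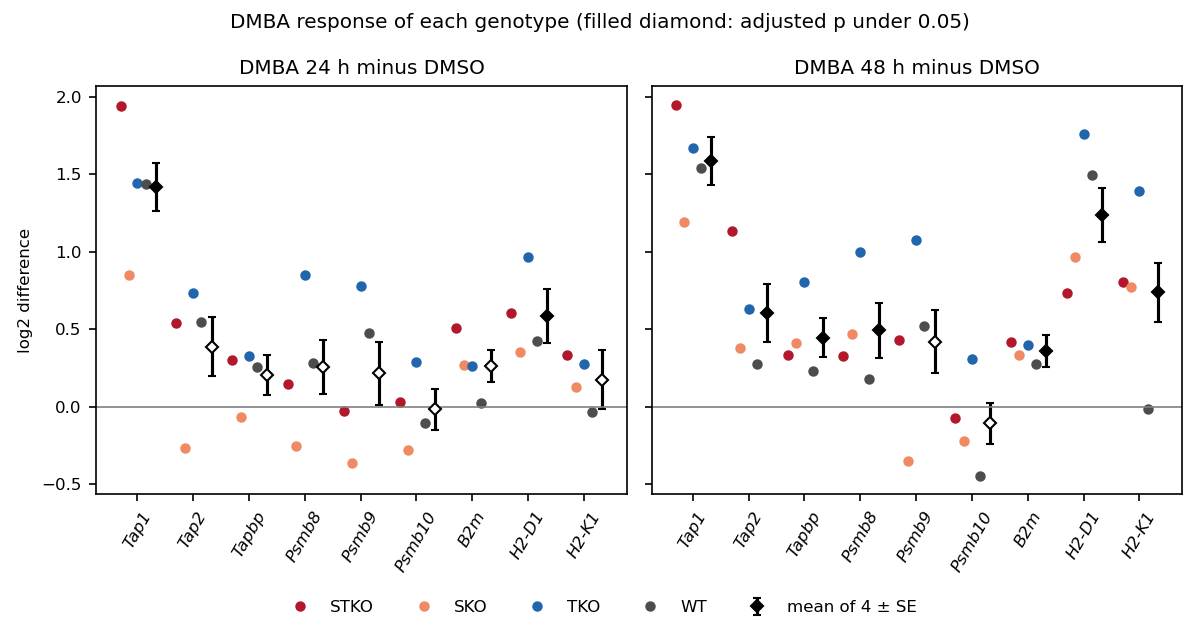
DMBA minus DMSO (log2) of the 9 genes at 24 h (left) and 48 h (right). Coloured points are the 4 genotypes, each a difference of 2 single arrays, and diamonds the mean of 4 with limma's standard error, filled where it passed. Tap1 as measured lies between 0.85 and 1.95 in all genotypes at both times (SKO and STKO against DMSO arrays on which it was not detected), whereas Psmb9 lies between -0.37 and -0.03 at 24 h in SKO and STKO.

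The DMBA response did not pass a test of dependence on STING for any of the 9 genes. Taking the mean of 24 and 48 h, the response without STING minus that with STING gave 0 of 9 calls, where 6.42% of all tested genes were called in either direction, and an unadjusted p under 0.05 for 2 of the 9 and 2815 of all genes by the same limma test. For Tap1 the difference as measured was -0.04 ± 0.28 (95% interval -0.67 to 0.60), but both Sting -/- DMSO arrays were not above background, so the response without STING is only bounded. The 2 genes were Psmb9 (-0.79 ± 0.24, adjusted p = 0.0899) and H2-D1 (-0.50 ± 0.20, adjusted p = 0.163). The H2-D1 probes did not move alike. Mean responses in STKO, SKO, TKO and WT were 0.67, 0.66, 1.36 and 0.96 for the probe used. They were 1.10, 0.80, 0.93 and 0.65 for the second probe, and 0.04, 0.94, 0.77 and 0.54 for the third. Psmb9 at 24 h differed from DMSO by -0.03 in STKO and -0.37 in SKO, against 0.78 in TKO and 0.48 in WT. In the authors' value table the Psmb9 difference was -0.67 and passed (adjusted p = 0.0453), the only 1 of the 9 to do so.

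Dependence of the DMBA response on TREX1 gave 0 of 9 calls, where 0% of all tested genes were called, and an unadjusted p under 0.05 for 0 of the 9 and 138 of all genes. The response without TREX1 minus that with TREX1 was above 0 for all 9 genes, from 0.17 ± 0.20 (B2m) to 0.52 ± 0.33 (Tap2), and each 95% interval included 0. For Tap1 it was 0.50 ± 0.25 (95% interval -0.09 to 1.08).

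Tap1 and Psmb9 start from the same 225 bases printed above, and their responses to DMBA are set side by side. At 24 h the Tap1 response exceeded that of Psmb9 by 0.67 in TKO and 0.96 in WT, and at 48 h by 0.59 in TKO and 1.02 in WT. In STKO Tap1 was at least 3.16-fold brighter at 24 h and at least 3.19-fold at 48 h, while Psmb9 differed by -0.03 and 0.43 on the log2 scale. In SKO Tap1 was at least 1.51-fold and 1.92-fold brighter, while Psmb9 differed by -0.37 and -0.35. The difference between the 2 responses was not tested, since only 2 genotypes measured Tap1 on both sides. By genotype the same pair went together, both lower in SKO than in WT and in STKO than in TKO.

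Other class I chains and class I-like molecules were read from a list of 29, which includes H2-D1, H2-K1 and B2m, and 14 of which were tested. Of these 14, 10 were lower in STKO than in TKO (median -1.34, beside 2.82% of all tested genes called lower). Among the 10 were H2-Q5 (-1.46 ± 0.16) and H2-T10 (-1.22 ± 0.14). The 10 also include H2-Q6 and H2-Q8, which were not above background on any STKO array, H2-Q8 being at least 3.01-fold lower there. Both were detected on Sting +/+ arrays only, so they entered the tests only through the cells where they are high and add no support. SKO was lower than WT for 5 (median -0.52, beside 4.23% of all tested genes), among them H2-T23 (-1.17 ± 0.21), a nonclassical chain that NK cell receptors recognise. TKO was higher than WT for 6 (median 0.55, beside 2.38%), H2-Q6 and H2-Q8 included, among them H2-Q7 (1.18 ± 0.23) and H2-T10 (0.78 ± 0.14). DMBA at 48 h raised 8 and lowered 1 (median 0.48, beside 19.2% of all tested genes called higher and 21.9% lower): H2-Q7 rose by 1.18 ± 0.20 and H2-Q1 by 0.48 ± 0.10, and H2-M3, which presents formylated peptides, fell by 0.90 ± 0.16.

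The catalytic subunits that the immunoproteasome replaces gave no call by genotype. Psmb5, Psmb6 and Psmb7 gave 0 of 3 calls in the STKO against TKO, SKO against WT, TKO against WT and STKO against SKO comparisons, with STKO minus TKO at 0.24 ± 0.20, -0.07 ± 0.13 and 0.05 ± 0.15. Over all tested genes 2.82% were called lower in STKO against TKO and 4.23% in SKO against WT. In TKO against WT 2.38% were called higher, and in STKO against SKO 0.168% either way. With shares this small, 0 calls among 3 genes, or among the 8 below, is not a result about them. DMBA raised Psmb5 (0.64 ± 0.17 at 24 h and 0.50 ± 0.17 at 48 h) and Psmb6 and Psmb7 did not pass. Over all tested genes 7.01% were called higher at 24 h and 19.2% at 48 h. Of the other 8 tested 20S core subunits 0 were called in the same 4 genotype comparisons, and DMBA lowered 2 at 48 h, Psma5 (-0.43 ± 0.11) and Psmb2 (-0.46 ± 0.10). That is near the share of all tested genes called lower at 48 h, 21.9%. Among 8 tested proteasome activators and assembly factors, the PA28 subunits Psme1 and Psme2, whose complex opens the core, were lower in STKO than in TKO (-0.91 ± 0.12 and -0.84 ± 0.11), and Psme2 also in SKO against WT (-0.60 ± 0.11). Of these 8, DMBA at 48 h lowered only Psmg1, an assembly chaperone, by 0.33 ± 0.09, beside the same 21.9% of all tested genes.

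Calr and Hspa5, general chaperones of the endoplasmic reticulum, fell under DMBA. Calr, calreticulin, which holds new class I molecules in the loading complex, read 11.72, 11.09 and 10.70 in STKO, 11.64, 11.32 and 10.42 in SKO, 11.77, 10.93 and 10.44 in TKO and 11.54, 10.94 and 10.56 in WT. It fell by 0.60 ± 0.12 at 24 h (adjusted p = 0.0119) and by 1.14 ± 0.12 at 48 h (adjusted p = 0.000165), and all 8 DMBA arrays were below all 4 DMSO arrays. Of 7 tested loading and trimming genes outside the 9, DMBA at 48 h lowered 5 and raised 0 (median -0.43), where 21.9% of all tested genes were called lower, against 9.73% at 24 h: Calr, the translocon genes Sec61a1 (-0.55 ± 0.12) and Sec61b (-0.30 ± 0.11), Hspa5 (-0.58 ± 0.19), the ER chaperone BiP, and the trimming peptidase Erap1. Erap1 was detected on 2 arrays, WT and TKO under DMSO, so it entered the tests only through DMSO and its call adds no support. Pdia3, the disulfide isomerase of the loading complex, did not pass (-0.06 ± 0.09, adjusted p = 0.657). By genotype 1 of the 7 was called in STKO against TKO, Tapbpl (-0.61 ± 0.12), the tapasin-related peptide editor, and 0 in SKO against WT and TKO against WT. Over all tested genes 2.82% were called lower in STKO against TKO, 4.23% lower in SKO against WT and 2.38% higher in TKO against WT.

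Among 15 tested regulators, Nlrc5, the class I coactivator, read 4.43, 4.68 and 4.83 in STKO, 4.50, 4.59 and 4.70 in SKO, 6.51, 7.71 and 8.62 in TKO, and 5.32, 5.46 and 6.28 in WT. It was detected on 4 arrays, the 3 of TKO and WT at 48 h. Nlrc5 was at least 3.55-fold lower in STKO than in TKO (-2.97 ± 0.30 as measured, adjusted p = 0.000259). As measured it was also higher in TKO than in WT (1.93 ± 0.30, adjusted p = 0.00394), being not detected in WT under DMSO or at 24 h. It entered the tests only through Sting +/+ arrays, chiefly those of TKO where it is high, so these genotype calls add no support. Its DMBA difference at 48 h over the 4 genotypes passed (0.92 ± 0.26 as measured, adjusted p = 0.0189), but TKO alone had it above background both under DMSO and with DMBA.

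Irf9 and Stat2, which act in type I interferon signalling, were lower in STKO than in TKO (-2.18 ± 0.23 and -2.23 ± 0.24) and in SKO than in WT (-1.41 ± 0.23 and -1.33 ± 0.24). Irf1 was lower in STKO than in TKO (-0.91 ± 0.19) and did not pass in SKO against WT (-0.53 ± 0.19, adjusted p = 0.133). Of the 15 regulators 4, Nlrc5 among them, were called lower in STKO against TKO (2.82% of all tested genes). In SKO against WT 2 were called lower (4.23%), and in TKO against WT 1, Nlrc5 itself, was called higher (2.38%). DMBA at 48 h raised 2 and lowered 3 of the 15, shares no larger than the 19.2% higher and 21.9% lower over all tested genes, among them Ifngr2 (0.90 ± 0.14), a chain of the interferon gamma receptor, and Nfyc (-1.01 ± 0.12), a subunit of NF-Y. Class II presentation, which shares none of the 9 genes, had 4 tested genes of 12. DMBA at 48 h raised H2-DMa (1.32 ± 0.14) and Ctss (1.06 ± 0.17), beside the same 19.2%. TKO was lower than WT for H2-DMb1, H2-DMb2 and Ctss (-1.18, -1.10 and -2.32), where 3.44% of all tested genes were called lower. H2-DMb2 was not above background in TKO and was at least 1.77-fold lower there. SKO was lower than WT for the same genes (-0.82, -0.92 and -0.89 as measured), where 4.23% were called lower. In STKO against TKO Ctss was called higher (1.52), where 2.63% were called higher, and the others did not pass. The difference from WT was thus not particular to loss of TREX1.

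Macrophage transcripts moved with genotype and with DMBA. The summed level of the macrophage list (linear units) was 11170 to 26040 on the Sting -/- arrays and 2633 to 30750 on the Sting +/+ arrays, with 2633 to 5201 in TKO and 16970 to 30750 in WT. TKO, which had the highest class I levels at each treatment for 8 of the 9 genes, thus had the lowest macrophage levels, and STKO was higher than TKO for 8 of 10 tested macrophage markers (median 2.14), where 2.63% of all tested genes were called higher, while it was lower for all 9 class I genes. In SKO against WT 1 of 10 macrophage markers was called lower, where 4.23% of all tested genes were called lower. Under DMSO 6 of the 10 were higher in the Sting -/- cells, where 2.27% of all tested genes were called higher. That comparison averages WT with TKO, and the summed level under DMSO was 18617 in STKO, 18119 in SKO, 3955 in TKO and 30746 in WT. Of the 6, Adgre1, C1qc, Lyz2 and Tyrobp were higher in WT than in both STKO and SKO under DMSO, and Cx3cr1 and Mrc1 were lower. DMBA at 48 h lowered 7 and raised 2 of 10 macrophage markers and lowered 5 and raised 1 of 10 fibroblast markers, beside 21.9% lower and 19.2% higher over all tested genes. The summed fibroblast level was 59480 to 69330 on the Sting -/- and 40960 to 63000 on the Sting +/+ arrays. The summed epithelial level was 184.2 to 319.3 on the Sting -/- and 197 to 459.3 on the Sting +/+ arrays, and the endothelial level 150.6 to 257.9 and 163.6 to 244.9. Krt8, detected on all 12 arrays, did not pass in STKO against TKO (-0.24), SKO against WT (-0.08) or TKO against WT (0.32). Nor did it pass for DMBA at 48 h (-0.007). Krt19 was called in STKO against TKO (-1.43), SKO against WT (-1.12) and DMBA at 48 h (0.95). Krt18 was called in TKO against WT (1.80). These 2 keratins were each detected on 5 arrays, Krt19 only on Sting +/+ and Krt18 only on Trex1 -/- arrays. They entered the tests only through genotypes where they are high, so their genotype calls add no support. Cdh1, detected on 2 arrays, WT and SKO at 48 h, was called for DMBA at 48 h (0.56) and in none of these genotype comparisons. It entered the tests only through DMBA arrays where it is high, so its DMBA call adds no support. The part of the cell mix in the class I differences was not tested.

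Over the 12 arrays, which share genotypes and treatments, the genes outside the 9 whose log2 levels were most like each gene are given as a description. Psmb8 was nearest to Mitd1 (r = 0.991) and Gbp2 (r = 0.99), Tapbp to Trim21 (r = 0.981), H2-D1 to Gm8909 (r = 0.979), Psmb9 to Ccl5 (r = 0.978), H2-K1 to Rtp4 (r = 0.974), Psmb10 to Ifi205 (r = 0.973), B2m to Lgals3bp (r = 0.97) and Tap2 to Rnf135 (r = 0.953). Tap1 was nearest to Asap3 (r = 0.968), Scnm1 (r = 0.967) and Krt19 (r = 0.949), a keratin. Among the 9 genes themselves, Tapbp and Psmb8 were most alike (r = 0.982) and Tap1 and Psmb10 least (r = 0.632).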

How the data were processed

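Transcripts were measured on 12 Illumina MouseWG-6 arrays. Per the file headers, the deposited signal of each probe is a linear intensity without between-array normalization. The deposited detection column is a score that rises with the signal (Spearman 0.98 to 0.99) and was read as 1 minus the detection p-value. The authors' value table is in log2 units and equals quantile-normalized log2 signals minus each probe's median (largest difference 0.00125, with column medians within 0.00312 of 0); it served as an alternative. No source used here names the software that made these files.

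Signals were background corrected and quantile normalized with neqc (offset 16) in limma 3.58.1 under R 4.3.3. Probes with a detection p-value under 0.01 on at least 2 of 12 arrays were tested, 18389 in all, for 10142 genes. Median signals were 69.8 to 87.5 per array, and the number of arrays limits the precision. A linear model with genotype and treatment (lmFit and eBayes, 6 residual degrees of freedom) was fitted over all arrays, and the same model with a STING or TREX1 interaction (4) gave STING loss under DMSO and how far responses to DMBA depended on either gene. Genotype and treatment were thereby each the block for the other, and the labels do not tell whether arrays share a culture. A 2-sided p, adjusted by Benjamini-Hochberg across every tested probe, had to be under 0.05 for a call, and values after ± are standard errors unless an SD is named. Where a group was not above background on any array, its level was replaced by the lowest signal among detected probes, which gives the "at least" folds. Promoter letters were searched with Python 3.11.15 and Biopython 1.88, and figures drawn with matplotlib 3.10.9.

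The 9 genes, the other lists and the tests were chosen with earlier results of these data known. All probes of the 9 genes were taken; from each other list up to 4 called genes with the smallest p per direction, lists of 3 or fewer whole, Nlrc5 and Irf1, and the 3 genes most correlated with each of the 9 were eligible to be named. Alternatives were the authors' table, median scaling, no detection filter, detection on all 12 arrays, the mean of a gene's probes, and leaving out each genotype, treatment or array. The scripts were tested on simulated data.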

Additional observations from a re-analysis of the deposited data

Results flagged for a closer look

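The effect of TREX1 loss on H2-K1 differed with STING status by -1.49 ± 0.31 (limma, adjusted p = 0.031), being -0.08 without STING and 1.41 with STING. The Psmb9 response to DMBA at 24 h was below 0 on both Sting -/- backgrounds (-0.03 in STKO and -0.37 in SKO) and above 0 on both Sting +/+ backgrounds (0.78 in TKO and 0.48 in WT), a difference of -0.83 that was not tested at that time. The Psmb10 response at 24 h was above 0 in both Trex1 -/- genotypes (0.03 in STKO and 0.29 in TKO) and below 0 in both Trex1 +/+ genotypes (-0.28 in SKO and -0.11 in WT), a difference of 0.35 that was not tested at that time. One more H2-K1 probe, outside the tests, was detected on 1 array, TKO with DMBA for 48 h, at 5.96, which is also the array with the highest level of the main H2-K1 probe.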

How the results depend on the processing

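Of 1051 recomputed gene differences, 946 kept their side of the threshold, 94 lost the call, 10 gained it and 1 called value changed sign: Tapbp at 48 h of DMBA, -0.10 as the mean of its tested probes. Among the 946, 29 that were called neither way also changed sign. Calls among the 9 genes for DMBA 24 h were 1 with median scaling, with no detection filter and with detection on all 12 arrays (8 genes, without Tap1), and 1 to 1 without each genotype in turn. For DMBA 48 h they were 2 to 6 without each genotype. For 48 h against 24 h they were 0 with no detection filter and 0 to 0 without each genotype. For TKO against WT they were 3 with no detection filter and 0 to 3 without each treatment. For SKO against WT they were 2 to 6, and for STKO against TKO 7 to 8, without each treatment. For the dependence of the TREX1 effect on STING they were 0 with no detection filter, 0 with the mean of probes, and 0 to 1 without each treatment. For STING loss under DMSO they were 5 with no detection filter and 2 to 9 without each array. For responses to DMBA that depend on STING, the authors' value table gave 1. With no filter more probes enter the adjustment, and leaving out arrays removes residual degrees of freedom; the cause of the other changes was not tested. Median scaling moved the median difference of all probes by less than 0.1 in each comparison. Genotype and treatment are blocks in the model itself, and with 1 array for each combination no replicate numbers offer a further pairing. Signal over background limited Tap1 and Nlrc5 in the Sting -/- cells.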
